A study of Mus musculus with 19 samples.

Results

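Msh3, Msh6, Mlh3, Pms1, Pms2, Fan1, Lig1 and Ogg1 are DNA repair genes known to modify how far an expanded CAG repeat grows in cells that have stopped dividing. These 8 genes were taken as a fixed list by name, out of 54232 genes in the count table, and all 8 passed the filter on low counts that left 18521 genes for testing. RNA of the striatum was sequenced in 19 C57BL/6 mice aged 6 months, 7 wild type (WT) mice and 4 mice of each of 3 knock-in (KI) genotypes. The KI-FL mice carried HD140Q, a huntingtin allele with an expanded CAG repeat, on 1 of their 2 copies of Htt and produced the mutant protein at full length. The same expanded allele had been cut short in KI-96 and KI-571 mice with CRISPR/Cas9, at exon 2 and at exon 13, and all 3 KI genotypes therefore shared the expanded repeat and kept 1 normal mouse allele. The KI-571 mice descended from 1 founder, so that the genotype and that line cannot be told apart. The repeat length itself was not measured in these files, and the comparisons ask only whether the transcript levels of the repair genes differed between genotypes.

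In mismatch repair, a sensor made of paired MutS proteins recognises a mispair or a small loop of extruded bases, and a MutL pair is then recruited to nick the DNA so that the stretch can be removed and filled in. Loops that form in a CAG repeat are handled by the same machinery, and repair of such a loop can add repeat units, which is why these genes have been studied as modifiers of Huntington's disease onset. Fan1 is a nuclease that acts against expansion and binds MutL proteins, Lig1 is a ligase that seals the last nick, and Ogg1 is a glycosylase that removes oxidised guanine and starts base excision repair.

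The substrate of this repair is the CAG tract of Htt exon 1. The normal mouse tract is shown because every mouse in the study carried at least 1 copy of it, with the glutamine codons in capitals. It was read from transcript Htt-201 of GENCODE release M21, GRCm38 chr5:34761943-34761993, plus strand, inside the coding part of exon 1.
Htt CAG tract: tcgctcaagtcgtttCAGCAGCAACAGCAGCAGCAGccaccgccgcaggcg
The 7 glutamine codons, residues 18 to 24, are 6 CAG codons interrupted by 1 CAA. The expanded tract of the HD140Q allele is not printed, as its sequence was not used here.

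The libraries held 12669809 to 26388542 counts on genes, the median being 18202412, and the counts of the 8 genes ran from 985 for Mlh3 in a WT mouse down to 0 for Pms1 in KI-FL replicate 4. That library stood apart from the other 18. It had 16384 genes detected, where the others had 23177 to 28700, and 17.2% of the tested genes were at 0 counts, where the others had 0.054% to 1.2%. The fold changes of the 8 genes in KI-FL against WT are therefore given with and without it. Xist, a transcript of the inactive X chromosome, was at or below 5.05 CPM, counts scaled to the library total, in 13 mice. It was between 885.6 and 1615 CPM in KI-FL replicate 2, in WT replicate 1 and in every KI-96 mouse. WT replicate 1 was therefore the only WT mouse with a Xist level like that of KI-96. Kdm5d, a Y-linked gene, had 0 to 2 counts in the mice with high Xist and 331 to 1346 counts in the other 13. By these genes every KI-96 mouse was female and every KI-571 mouse male, so that genotype and sex cannot be told apart between them. Sex and genotype also largely coincide in KI-96 against WT and in KI-FL against KI-96. With the Xist level of each mouse added to the fit, 0 of the 8 genes were called in KI-96 against WT by edgeR. In that fit 0 of all 18521 tested genes were called, so that the count among the 8 genes cannot decide anything. Choroid plexus markers summed to 5132 and 5361 CPM in KI-571 replicates 2 and 4 and to 3046 CPM in KI-FL replicate 1, against 36.7 to 408.7 CPM elsewhere. The 10 striatal projection neuron markers were all above 0 counts in every mouse and summed to 5373 to 9134 CPM. In bulk tissue, fewer cells of a type and less RNA per cell cannot be told apart.

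None of the 8 genes passed an adjusted p of 0.05 in any of the 7 comparisons, with edgeR's quasi-likelihood test and p-values adjusted by Benjamini-Hochberg. Against WT the count was 0 of 8 in KI-96, where 0.027% of all tested genes were called, 0 of 8 in KI-571, where 0.0324% were called, and 0 of 8 in KI-FL, where 0.194% were called. The mean of the 3 KI genotypes gave 0 of 8 against WT, with 0.054% of all tested genes called. Between KI genotypes the count was 0 of 8 for KI-571 against KI-96, 0 of 8 for KI-FL against KI-96 and 0 of 8 for KI-FL against KI-571, where 0.0054%, 0% and 0.0864% of tested genes were called. At an unadjusted p under 0.05, 0 of the 8 genes stood out in KI-571 against KI-96, where 5.51% of tested genes did. With so few calls among all genes, a count of 0 among 8 lies at the background. DESeq2 also called 0 of 8 in each of the 7 comparisons.

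The size of the differences that the data leave possible is given by the 95% intervals, which are not adjusted for the number of genes. For the 7 genes other than Pms1, the standard errors of the log2 fold changes against WT were 0.10 to 0.17, the fold changes lay between -0.23 and 0.23 on the log2 scale, and every interval lay between 0.704 and 1.44 times the WT level. The intervals of Pms1 ran from 0.348 to 2.32 times the WT level, and its standard error in KI-FL was 0.48 with all mice and 0.25 without KI-FL replicate 4. The median log2 fold change of the 8 genes was 0.067 in KI-96, -0.047 in KI-571 and 0.056 in KI-FL, beside -0.015, -0.0089 and -0.028 over all tested genes. Without KI-96 replicate 3 the first of these medians was -0.053, and without KI-FL replicate 4 the last was 0.033. No gene of the 8 had a KI group free of overlap with the WT mice in CPM, a separation that 1.24%, 1.55% and 5.29% of all tested genes showed for KI-96, KI-571 and KI-FL.

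**Figure D1:**
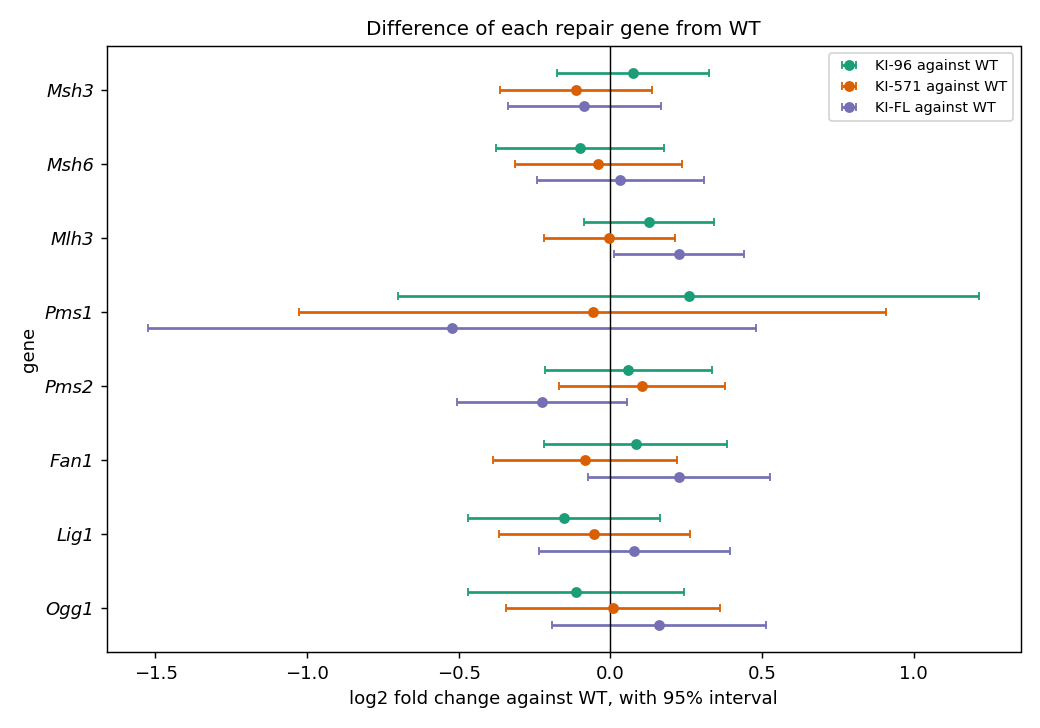
Log2 fold change against WT on the horizontal axis for each of the 8 genes on the vertical axis, with 95% intervals from edgeR, for KI-96, KI-571 and KI-FL (n = 4 mice each, against 7 WT). All intervals cross 0 except that of Mlh3 in KI-FL, which starts at 0.013, and the intervals of Pms1 are the widest.

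Msh3 and Msh6 encode the MutS partners that decide what is recognised. Msh3 belongs to the sensor of larger loops, the form that drives CAG expansion in mouse models, and Msh6 to the sensor of single mispairs. Msh3 lies on GRCm38 chr13:92211872-92355003, minus strand, and Msh6 on chr17:87975062-87990892, plus strand.

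Msh3 in the 7 WT mice had a lowest value of 19.2 CPM, a median of 21.5 CPM and a highest value of 24.1 CPM. The 4 KI-96 mice had 22.01, 24.9, 24.1 and 21.4 CPM, the 4 KI-571 mice 22.8, 19.3, 17.2 and 21.6 CPM, and the 4 KI-FL mice 19.6, 23.6, 24.3 and 15.01 CPM. All 3 KI groups overlapped the WT mice, and the lowest value of all belonged to KI-FL replicate 4. The log2 fold change was 0.07 ± 0.12 (SE) in KI-96, -0.11 ± 0.12 in KI-571 and -0.09 ± 0.12 in KI-FL, with adjusted p = 0.926, 0.940 and 0.745 by edgeR. Without KI-FL replicate 4 the KI-FL value was 0.04, with the sign turned.

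Msh6 in WT had a lowest value of 12.4 CPM, a median of 21.4 CPM and a highest value of 22.4 CPM. KI-96 mice had 19.6, 18.0, 19.03 and 17.5 CPM, KI-571 mice 23.1, 17.02, 18.3 and 18.7 CPM, and KI-FL mice 20.8, 21.6, 18.2 and 20.6 CPM. All 4 KI-96 mice lay below the WT median but above the lowest WT mouse, replicate 3, which was well apart from the other 6 WT mice at 18.5 CPM or more. In that mouse the 7 cortical excitatory neuron markers summed to 1062 CPM, against 42.0 to 101.1 CPM in the other WT mice, and their part in the low value was not tested. The log2 fold changes of Msh6 were -0.10 ± 0.13 (SE) in KI-96, -0.040 ± 0.13 in KI-571 and 0.033 ± 0.13 in KI-FL. Without KI-FL replicate 4 the last was 0.026. Without WT replicate 3 they were -0.19 in KI-96 and -0.062 in KI-FL, the latter with its sign turned.

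The balance between these partners was taken in each mouse as the ratio of their levels per length, as TPM, counts divided by length and scaled to a common total. With the union of all annotated exons as the length, the TPM ratio of Msh6 to Msh3 was 2.37 ± 0.51 (SD, n = 7) in WT, 2.09 ± 0.18 (n = 4) in KI-96, 2.47 ± 0.26 (n = 4) in KI-571 and 2.65 ± 0.68 (n = 4) in KI-FL. The highest ratio, 3.55, was in KI-FL replicate 4 and the lowest, 1.36, in WT replicate 3, and the groups overlapped. Without the former the KI-FL mean was 2.35 ± 0.40 (n = 3). Which of the 2 transcripts is more abundant depends on the length used. The exon union of Msh3 is 11254 bases and its principal coding transcript 3946 bases, and with the latter the WT ratio was 0.848 ± 0.18.

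Mlh3, Pms1 and Pms2 encode the alternative MutL partners, each of which pairs with the same common subunit. Pms2 belongs to the main mismatch repair nuclease, Mlh3 to a nuclease best known for meiotic crossing over that is needed for CAG expansion in mouse striatum, and Pms1 to a pair without a known nuclease function of its own. Mlh3 lies on GRCm38 chr12:85234520-85270599, minus strand, Pms1 on chr1:53189187-53297018, minus strand, and Pms2 on chr5:143909964-143933968, plus strand.

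Mlh3 in WT had a lowest value of 30.0 CPM, a median of 32.9 CPM and a highest value of 37.2 CPM. KI-96 mice had 35.6, 35.1, 44.3 and 31.4 CPM, KI-571 mice 38.4, 35.2, 31.1 and 29.0 CPM, and KI-FL mice 36.2, 41.8, 40.6 and 38.2 CPM. In KI-FL, 3 of 4 mice were above every WT mouse and the fourth was inside the WT range. The log2 fold change in KI-FL was 0.23 ± 0.10 (SE), a 1.17-fold higher level with an interval of 1.01 to 1.36, at an unadjusted p of 0.0388 and an adjusted p of 0.275 by edgeR. Of all tested genes, 16.7% had an unadjusted p as low as 0.05 in this comparison, so that 1 such gene among 8 is near the background share. DESeq2 gave no member an unadjusted p under 0.05 against WT. Without KI-FL replicate 4 the value was 0.24. In KI-96 and KI-571 the log2 fold changes of Mlh3 were 0.13 ± 0.10 and -0.0029 ± 0.10.

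Pms2 in WT had a lowest value of 12.5 CPM, a median of 13.3 CPM and a highest value of 16.1 CPM. KI-96 mice had 14.7, 13.1, 18.5 and 11.4 CPM, KI-571 mice 16.6, 14.6, 15.3 and 13.1 CPM, and KI-FL mice 12.4, 12.98, 12.3 and 9.66 CPM. All 4 KI-FL mice were below the WT median and 3 of them below every WT mouse. Against WT the log2 fold change in KI-FL was -0.23 ± 0.13 (SE), with adjusted p = 0.402 by edgeR, and it was -0.14 without KI-FL replicate 4. Against KI-571 it was -0.33 ± 0.15, at an unadjusted p of 0.0401 and an adjusted p of 0.540 by edgeR, and without KI-FL replicate 4 it was -0.24 at an unadjusted p of 0.120. A share of 8.9% of all tested genes had an unadjusted p under 0.05 between these genotypes, and 1 of the 8 genes did, where without that mouse 6.71% and 0 of 8 did.

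Pms1 was the least abundant of the 8 genes, and its counts ran from 51 to 122 in WT, from 58 to 104 in KI-96 and from 30 to 81 in KI-571. In CPM, WT had a lowest value of 3.01, a median of 3.56 and a highest value of 4.32. KI-96 mice had 5.05, 3.79, 5.64 and 2.85 CPM, KI-571 mice 3.89, 1.79, 3.94 and 4.24 CPM, and KI-FL mice 3.92, 3.01, 3.13 and 0 CPM. The 0 in KI-FL replicate 4 allows a level of up to 0.196 CPM, the value of 3 counts in that library, and covers counting error only. The log2 fold change of -0.52 ± 0.48 (SE) in KI-FL became -0.11 without that mouse. In KI-96 it was 0.26 ± 0.46 and in KI-571 -0.058 ± 0.47, where replicate 2, with 30 counts, lay below the other 3 mice.

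Since Pms2 was lower and Mlh3 higher in KI-FL, neither past the threshold, the ratio of the partners is given in each mouse. The TPM ratio of Pms2 to Mlh3 was 0.321 to 0.462 in WT, with a median of 0.365. KI-96 mice had 0.385, 0.348, 0.389 and 0.338, KI-571 mice 0.401, 0.385, 0.458 and 0.421, and KI-FL mice 0.319, 0.289, 0.283 and 0.235. The mean ratio was 0.388 ± 0.058 (SD, n = 7) in WT and 0.281 ± 0.035 (n = 4) in KI-FL, and all 4 KI-FL mice were below all 15 other mice. Without KI-FL replicate 4, the lowest, the KI-FL mean was 0.297 ± 0.019 (n = 3). The margin to the lowest WT mouse was narrow, 0.319 against 0.321. This ratio was described without a test. It combines the lower Pms2 and the higher Mlh3 of the same mice, so that its separation is no further support for either. Among single tested genes, 5.29% had no overlap in CPM between KI-FL and WT. The TPM ratio of Pms1 to Mlh3 was 0.108 ± 0.015 in WT and 0.064 ± 0.046 in KI-FL, or 0.086 ± 0.020 without the 0 of KI-FL replicate 4, and the ratio of Fan1 to Mlh3 was 0.577 ± 0.090 in WT and 0.574 ± 0.10 in KI-FL, or 0.530 ± 0.068 without that mouse.

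**Figure D2:**
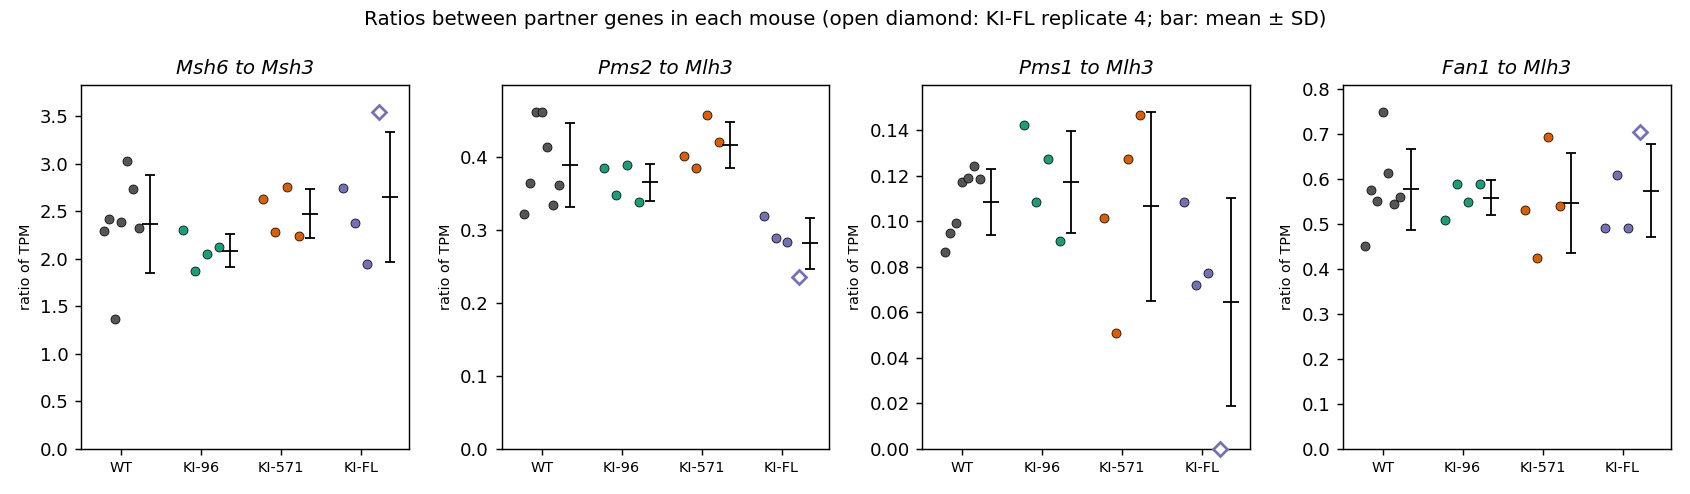
Ratio of TPM between 4 pairs of partner genes in each mouse on the vertical axis, by genotype on the horizontal axis, with the mean and SD beside the points and KI-FL replicate 4 as an open diamond. In the Pms2 to Mlh3 panel the KI-FL mice sit between 0.235 and 0.319, below the 7 WT mice at 0.321 to 0.462, and in the other panels the groups overlap.

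Fan1, the nuclease that opposes expansion, lies on GRCm38 chr7:64346758-64374095, minus strand. WT mice had a lowest value of 13.5 CPM, a median of 14.8 CPM and a highest value of 19.5 CPM. KI-96 mice had 14.5, 16.6, 19.6 and 14.8 CPM, KI-571 mice 16.4, 12.02, 17.3 and 12.6 CPM, and KI-FL mice 14.3, 20.4, 16.0 and 21.7 CPM. In KI-FL, 2 of 4 mice were above the WT range, KI-FL replicate 4 being the highest. The log2 fold change in KI-FL was 0.23 ± 0.14 (SE), with adjusted p = 0.437 by edgeR, and it was 0.13 without that mouse. The values in KI-96 and KI-571 were 0.08 ± 0.15 and -0.08 ± 0.15, and without KI-96 replicate 3 the KI-96 value was -0.017.

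Lig1, the ligase of the last step, lies on the same chromosome at chr7:13277283-13311433, plus strand. WT mice had a lowest value of 8.18 CPM, a median of 9.91 CPM and a highest value of 11.1 CPM. KI-96 mice had 9.38, 8.44, 7.92 and 9.43 CPM, KI-571 mice 10.6, 10.2, 8.54 and 8.27 CPM, and KI-FL mice 8.03, 8.87, 10.5 and 13.9 CPM. All 4 KI-96 mice were below the WT median, and the KI-FL mice lay on both sides of it. The log2 fold changes were -0.15 ± 0.15 (SE), -0.053 ± 0.15 and 0.079 ± 0.15 for KI-96, KI-571 and KI-FL, and the last was -0.098 without KI-FL replicate 4.

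Ogg1, the glycosylase for oxidised guanine, lies on chr6:113326972-113335068, plus strand. WT mice had a lowest value of 4.49 CPM, a median of 5.97 CPM and a highest value of 6.79 CPM. KI-96 mice had 5.12, 5.17, 5.10 and 6.04 CPM, KI-571 mice 4.71, 6.49, 6.41 and 5.75 CPM, and KI-FL mice 6.11, 7.52, 4.85 and 7.51 CPM. KI-FL held both a value near the bottom of the WT range and 2 values above it. The log2 fold changes were -0.11 ± 0.17 (SE), 0.0088 ± 0.17 and 0.16 ± 0.17 for KI-96, KI-571 and KI-FL, and the last was 0.081 without KI-FL replicate 4.

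**Figure D3:**
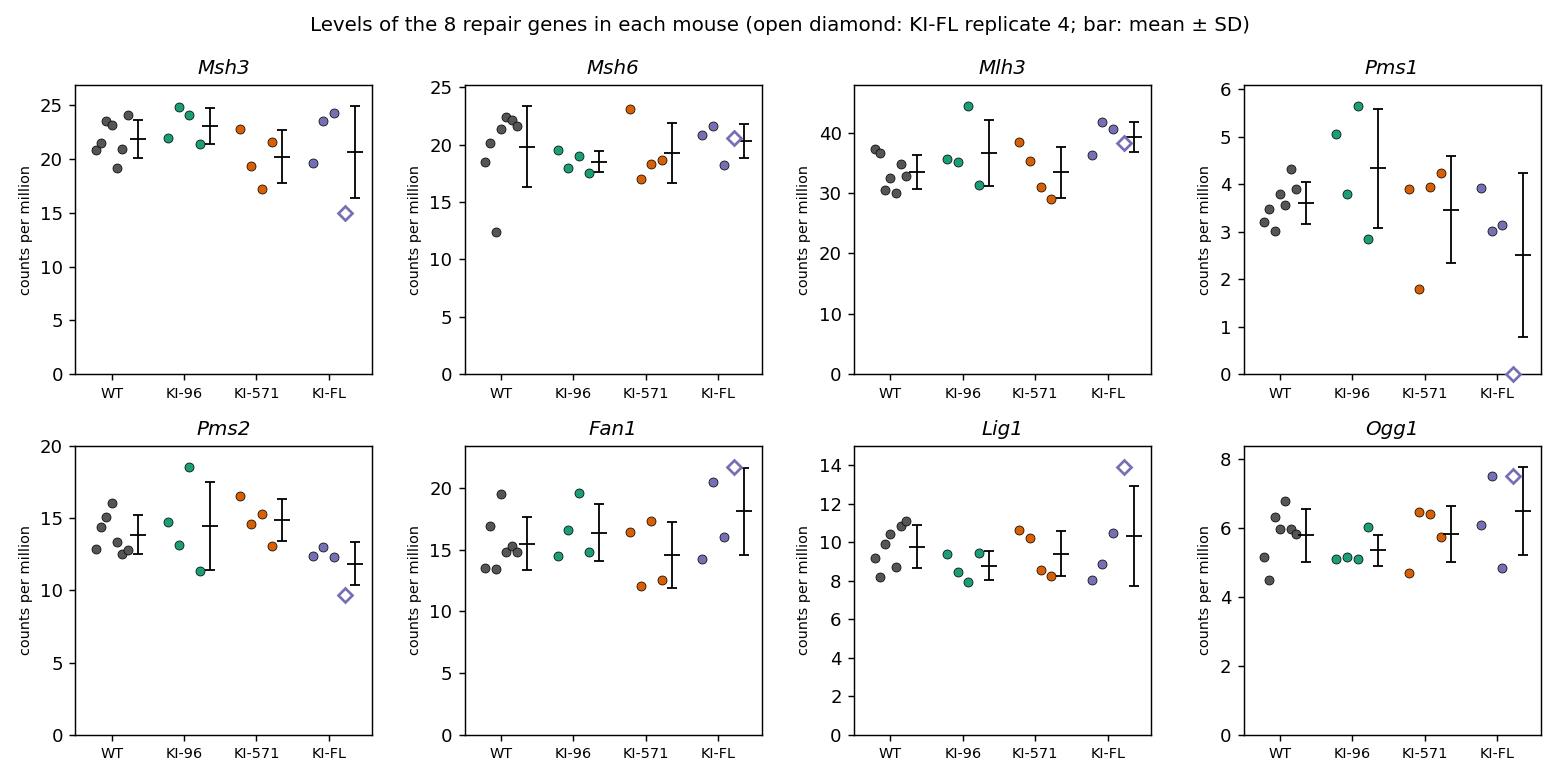
CPM of each of the 8 genes on the vertical axis in every mouse, by genotype on the horizontal axis, with the mean and SD beside the points and KI-FL replicate 4 as an open diamond. That mouse is the lowest of all 19 for Msh3 at 15.01 CPM, Pms1 at 0 and Pms2 at 9.66 CPM and the highest for Fan1 at 21.7 CPM and Lig1 at 13.9 CPM.

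Levels were compared between genes in TPM only, in WT mice. With the exon union as the length, the order of the mean TPM was Msh6 at 16.3 ± 3.2 (SD, n = 7), Mlh3 at 15.8 ± 1.6, Ogg1 at 9.44 ± 1.3, Fan1 at 9.11 ± 1.6, Lig1 at 8.17 ± 1.1, Msh3 at 6.94 ± 0.65, Pms2 at 6.09 ± 0.71 and Pms1 at 1.71 ± 0.26. Mlh3 was above Ogg1 in 7 of 7 WT mice, Lig1 above Msh3 in 7 of 7, Msh3 above Pms2 in 7 of 7 and Pms2 above Pms1 in 7 of 7. Msh6 against Mlh3 and Fan1 against Lig1 went the stated way in 4 of 7 WT mice, and Ogg1 against Fan1 in 5 of 7, so that these neighbours did not differ beyond their spread. The median TPM of the 14851 tested coding genes was 17.6, above all 8 genes, and 11.1% of those coding genes were below Pms1 while 47.8% were below Msh6.

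The order moved when the principal coding transcript was used as the length, an alternative chosen after seeing the data. Msh3 then stood at 14.0 ± 1.2 TPM, after Mlh3 at 15.4 ± 1.5 and above Msh6 at 11.8 ± 2.3, while Pms2 and Pms1 stayed in the last places. The counts cannot say which transcript forms the reads came from, so that the place of Msh3 among the 8 genes is set by the annotation used.

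**Figure D4:**
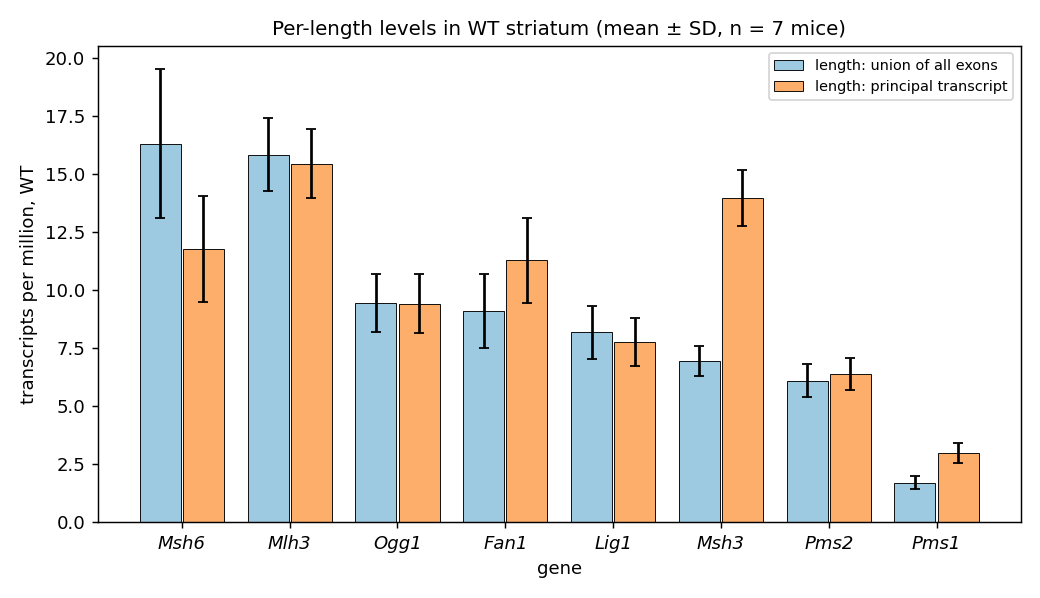
Mean TPM of the 8 genes in WT mice on the vertical axis (n = 7, error bars are SD), with the exon union or the principal transcript as the gene length. Msh3 moves from 6.94 to 14.0 TPM between the length rules and Mlh3 stays at 15.8 and 15.4 TPM.

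Several of the 8 genes share their start or their ends with a gene on the opposite strand. Since the strand setting of the counting is not given in the sources used here, reads in such overlaps cannot be told apart. Pms1 starts 77 bases from Ormdl1, a regulator of sphingolipid synthesis, and Pms2 117 bases from Aimp2, a scaffold of tRNA synthetases, in both cases pointing away from each other. The last bases of Msh6 overlap Fbxo11 by 34 bases, those of Ogg1 overlap Camk1 by 945 bases, and Zswim9 overlaps the start of Lig1 by 1439 bases. None of these 5 neighbours was called in any KI genotype against WT by edgeR. Gm20379, Gm46369, Gm28778, Gm28777, Gm17135 and Gm15492, which also overlap or start near a member on the opposite strand, had too few counts to be tested, and no such gene was found for Fan1.

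The values of the neighbours are given beside those of the repair genes. The log2 fold change of Aimp2 was 0.44 in KI-FL, with adjusted p = 0.257 by edgeR, where Pms2 was -0.23, and without KI-FL replicate 4 these values were 0.22 and -0.14. Ormdl1 was -0.33 in KI-FL and -0.10 without that mouse. Over the 19 mice the correlation of log2 CPM was 0.50 for Pms1 with Ormdl1 and -0.57 for Pms2 with Aimp2, and without KI-FL replicate 4 it was -0.23 and -0.33, so that the sign of the first rests on that mouse.

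The shared starts are shown because they are the stretch from which both genes of a pair are transcribed. Each stretch lies between the annotated starts, outside both transcripts, in the RefSeq sequence of GRCm38.p6, and is written 5′ to 3′ on the strand of the repair gene with CG dinucleotides in capitals. Between Pms1 and Ormdl1, chr1:53297029-53297094, minus strand, 66 bases hold 4 CG.
Pms1 to Ormdl1: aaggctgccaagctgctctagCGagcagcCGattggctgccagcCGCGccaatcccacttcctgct
Between Pms2 and Aimp2, chr5:143909848-143909963, plus strand, 116 bases hold 7 CG.
Pms2 to Aimp2: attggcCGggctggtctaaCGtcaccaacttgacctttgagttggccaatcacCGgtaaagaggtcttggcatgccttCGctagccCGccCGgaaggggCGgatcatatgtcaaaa
Each stretch holds CCAAT on either strand 2 times, and the second also holds GGGCGG 2 times.

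All 8 genes had a RefSeq promoter window of 300 bases, from 250 before to 50 after the start. The windows held 5 to 37 CG dinucleotides with a median of 23.5, where the median of 27025 promoters was 7. The lowest was Lig1 with 5 and the highest Msh6 with 37. Searched on both strands, CCAAT was in 5 of the 8 windows and in 37.9% of all promoters, GGGCGG in 5 of the 8 and in 35.9%, and TATAAA in 0 of the 8 and in 14.2%. A match of letters is a description and not a bound site.

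The rest of the repair pathway was taken from lists of partner genes, and it too showed few differences. Of 18 tested mismatch repair partners, which hold the shared subunits of the MutS and MutL pairs, the exonuclease Exo1, the sliding clamp and its loader, replication protein A and DNA polymerase delta, 0 were called in any KI genotype against WT by edgeR, with 1, 1 and 4 at an unadjusted p under 0.05 for KI-96, KI-571 and KI-FL. The background shares at that unadjusted threshold were 7.45%, 7.72% and 16.7% of all tested genes. The list medians of the log2 fold change were -0.086, 0.021 and -0.046, and the last was -0.0055 without KI-FL replicate 4.

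Rpa1, which coats single-stranded DNA, had the smallest p of this list in KI-96 and in KI-571. WT mice had 37.5 to 50.5 CPM with a mean of 45.5, KI-96 mice 56.3, 55.8, 53.5 and 52.4 CPM, and KI-571 mice 54.3, 54.2, 54.3 and 54.0 CPM. All 8 of those KI mice were above all 7 WT mice. Of all tested genes, 1.24% in KI-96 and 1.55% in KI-571 had no overlap with these same WT mice. The log2 fold changes were 0.26 ± 0.08 (SE) and 0.25 ± 0.08, with adjusted p = 0.552 and 0.301 by edgeR, so that neither passed the threshold. Rpa1 was also higher in KI-FL, at 54.2, 53.4, 54.3 and 47.4 CPM, the last inside the WT range. Its log2 fold change there was 0.20 ± 0.08, with adjusted p = 0.211 by edgeR, and 0.25 without KI-FL replicate 4. In KI-FL, Exo1, the exonuclease that removes the mispaired strand, had the smallest p of the list. It had 6, 5, 3 and 0 counts in the KI-FL mice and 7 to 27 counts in WT, near the floor. Scaled to library size these were 0.398, 0.396, 0.152 and 0 CPM in KI-FL and 0.401 to 1.03 CPM in WT, so that the groups almost met. The log2 fold change of Exo1, -1.68 ± 0.58, had adjusted p = 0.163 by edgeR and was -1.28 without KI-FL replicate 4.

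In base excision repair, the pathway of Ogg1, 1 of 19 tested genes was called against WT by edgeR, in KI-FL, where 0.194% of all tested genes were called. This was Apex1, the endonuclease that cuts the DNA at the site Ogg1 and other glycosylases leave. WT mice had a lowest value of 4.91 CPM, a median of 6.59 CPM and a highest value of 7.64 CPM, and the KI-FL mice had 9.49, 11.9, 9.70 and 21.5 CPM, all above WT. KI-96 mice had 10.6, 10.1, 6.99 and 8.15 CPM and KI-571 mice 7.54, 9.94, 10.02 and 6.44 CPM, so that both groups overlapped WT. The log2 fold change in KI-FL was 1.07 ± 0.21 (SE), with adjusted p = 0.0435 by edgeR and 0.000854 by DESeq2. The highest value was that of KI-FL replicate 4, and without that mouse the log2 fold change was 0.72 with adjusted p = 0.126 by edgeR. In KI-96 it was 0.51 ± 0.21 with adjusted p = 0.639 by edgeR. Polb, the polymerase that fills the gap, had the smallest p of the list in KI-571, with a log2 fold change of -0.27 ± 0.13 and adjusted p = 0.656 by edgeR.

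In the Fanconi anemia and crosslink repair list, which holds the complexes that Fan1 was first linked with, 0 of 20 tested genes were called against WT by edgeR in any KI genotype, with 1, 0 and 2 at an unadjusted p under 0.05 for KI-96, KI-571 and KI-FL. Of all tested genes, 7.45%, 7.72% and 16.7% were under that unadjusted threshold. Levels below WT were found for 16 of the 20 genes in KI-96, 15 in KI-571 and 14 in KI-FL. Among all tested genes 52.8%, 51.7% and 53.9% were lower, and the difference between these shares was not tested. The list medians were -0.14, -0.093 and -0.12 on the log2 scale, and the last was -0.096 without KI-FL replicate 4. Its genes of smallest p were Fancl, the ubiquitin ligase of the pathway, at -0.57 ± 0.18 (SE) in KI-96, Wdr48, a cofactor of the deubiquitinase, at -0.13 ± 0.09 in KI-571, and Faap24, a DNA-binding member of the core complex, at 0.80 ± 0.24 in KI-FL. The last had adjusted p = 0.117 by edgeR and was called by DESeq2, and it was 0.46 without KI-FL replicate 4. Faap100, the other gene of this list under the unadjusted threshold in KI-FL, went the opposite way, at -0.60 ± 0.20. Of 8 other genes linked with repeat length or disease onset, 0 were called by edgeR, with 0, 1 and 1 at an unadjusted p under 0.05, and the smallest p values belonged to Ccdc82 in KI-96 and KI-571, at -0.18 ± 0.13 and -0.28 ± 0.13, and Hdac2, a histone deacetylase, in KI-FL, at 0.23 ± 0.09, or 0.21 without KI-FL replicate 4.

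Proliferating cells express many repair genes during replication, and 10 of their markers were followed for that reason. None was called against WT by edgeR, with 2, 1 and 2 at an unadjusted p under 0.05 for KI-96, KI-571 and KI-FL. Of all tested genes, 7.45%, 7.72% and 16.7% were under that threshold. The median log2 fold changes of the 10 markers were -0.43, 0.096 and -0.24. The summed level of the markers was 31.0 to 51.9 CPM in WT, 28.7 to 44.8 in KI-96, 44.2 to 52.0 in KI-571 and 38.5 to 41.6 in KI-FL. Top2a, a topoisomerase, had the smallest p in KI-96, at -0.79 ± 0.29 (SE). Mcm6, a replicative helicase subunit, had it in KI-571, at 0.92 ± 0.42, and in KI-FL, at -1.27 ± 0.47, where replicate 4 had 0 counts and the value without it was -0.86.

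**Figure D5:**
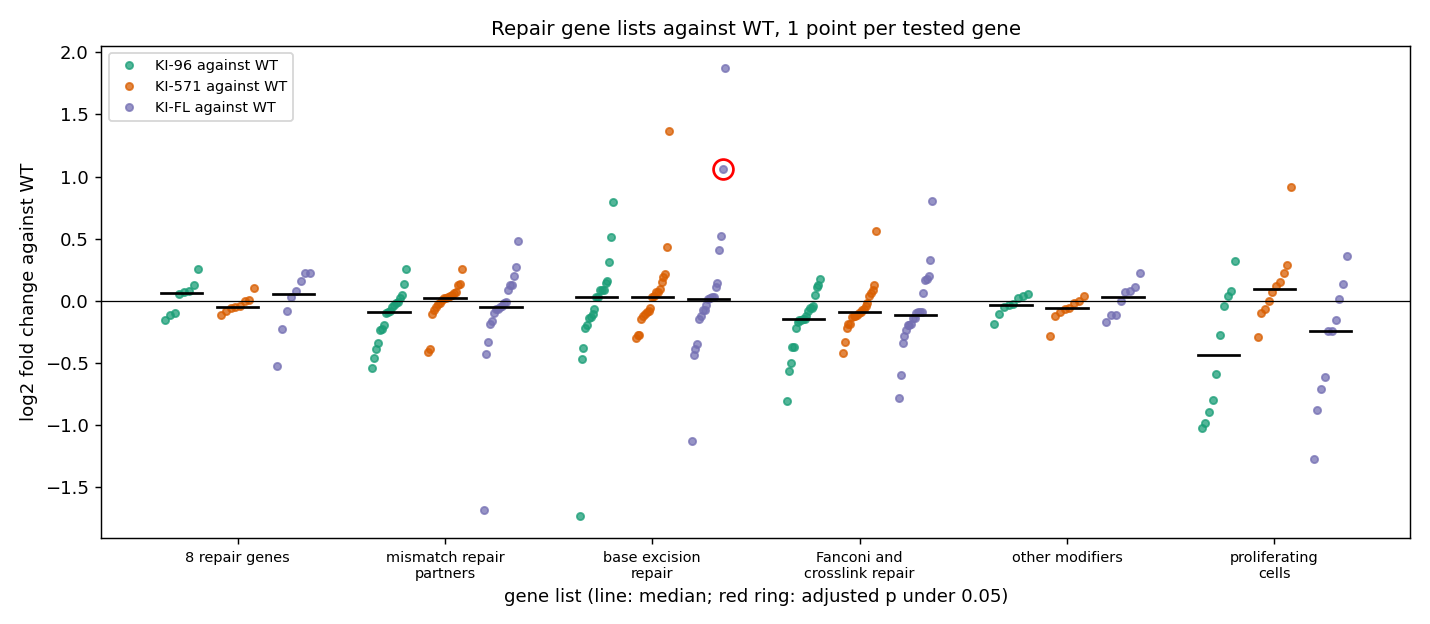
Log2 fold change against WT on the vertical axis for each tested gene of 6 lists on the horizontal axis, for KI-96, KI-571 and KI-FL, with the list median as a line and a red ring at an adjusted p under 0.05. The 8 repair genes lie between -0.52 and 0.26, and the only ring is that of Apex1 in KI-FL at 1.07.

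Markers of other cell types are given for the mice in which the 8 genes were compared. The 7 astrocyte markers summed to 3090 to 3526 CPM in KI-FL and to 3367 to 4143 CPM in WT, and 6 of 7 were lower in KI-FL with a median log2 fold change of -0.37. Of these markers 0 were called by edgeR, with 3 at an unadjusted p under 0.05, where 16.7% of all tested genes were. The 7 oligodendrocyte markers were all lower in KI-FL, with a median of -0.25 and summed levels of 9818 to 11378 CPM against 10444 to 14816 CPM in WT. In KI-96 and in KI-571, 6 of the 7 oligodendrocyte markers were lower, with medians of -0.11 and -0.10. No marker of either list was at 0 counts in any mouse. Without KI-FL replicate 4 the KI-FL medians were -0.34 for the astrocyte and -0.24 for the oligodendrocyte markers. Their part in the values of Mlh3, Pms2 and Fan1 in KI-FL was not tested. In KI-571 the 6 choroid plexus markers had a median log2 fold change of 3.84, with 0 of 6 called by edgeR. All 6 had an unadjusted p under 0.05, where 7.72% of all tested genes did. The high levels were those of replicates 2 and 4. Fan1 was at 12.02 and 12.6 CPM in these mice, below every WT mouse and below the other KI-571 mice at 16.4 and 17.3 CPM. Pms2 was also lower in both, at 14.6 and 13.1 CPM against 16.6 and 15.3 CPM, and Pms1 was low in replicate 2 alone. For the other 5 genes the values of these mice did not both lie on one side of the other KI-571 mice. A split of 2 mice against 2 arises easily by order alone, and its share among all tested genes was not counted. The split of Fan1 and Pms2 is therefore a description and sets neither gene apart. The part of the choroid plexus in the KI-571 values was not tested.

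Red blood cell markers were the only marker list with calls against WT. In KI-571, where 0.0324% of all tested genes were called, 2 of the 5 markers rose by edgeR. These were the haemoglobin gene Hbb-bt at 1.68 ± 0.30 (SE, log2 scale) with adjusted p = 0.0467 and Alas2, an enzyme of haem synthesis, at 1.77 ± 0.30 with adjusted p = 0.0281. The list median was 1.13. With 1 mouse left out at a time, no marker was called in 7 of 19 fits, those without KI-571 replicate 2 or without any 1 of WT replicates 1, 3, 4, 5, 6 and 7, and the list median was 0.66 without KI-571 replicate 2 and 0.98 to 1.35 in the other fits. Their summed level was 163.0 to 482.6 CPM in KI-571, 79.5 to 214.3 CPM in WT and 43.5 to 103.3 CPM in KI-FL, and no marker was at 0 counts in any mouse. In KI-FL against KI-571, the comparison in which Pms2 was -0.33, 4 of 5 were called lower by edgeR with a median of -1.99. Of all tested genes, 0.0864% were called there. Without KI-FL replicate 4 the median was -1.98 with 0 called and 5 at an unadjusted p under 0.05, where 6.71% of all tested genes were. The part of the red blood cell markers in the values of the 8 genes was not tested.

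The genes whose log2 CPM was most like that of Msh3 over the 19 mice were Gm37067, Gm8281 and Gm11948, with Pearson's r of 0.86, 0.86 and 0.85, and 0.73, 0.74 and 0.74 without KI-FL replicate 4, in which all 3 were at 0 counts. The median r of Msh3 with all tested genes was 0.078. For Fan1 they were Kmt5b, a histone methyltransferase, at 0.82, Gm44586 at 0.80 and Pcdhb18, a clustered protocadherin, at 0.79, and 0.78, 0.77 and 0.72 without that mouse, with a median of -0.088 over all tested genes. These correlations are descriptions, chosen as the highest of 18521, and the points share the depth and quality of their libraries. Between members the highest r was 0.68, for Msh3 with Pms1, and it was 0.19 without KI-FL replicate 4. That of Mlh3 with Fan1 was 0.51 and 0.49.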

How the data were processed

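Striatal RNA of 19 mice was measured, and genotypes and replicate numbers were taken from the labels. The deposited values are raw counts of reads on genes, as the authors made them. According to the methods of the paper, reads were trimmed with BBduk, aligned to GRCm38 with STAR and counted with HTSeq, and versions, annotation and strand setting are not given in the sources used here. A sacrifice batch and the removal of 1 WT outlier, which those methods mention, could not be applied, since neither is named for single mice. The table has 4 columns of no listed sample, which were not used, and 5 summary lines that are not genes. According to the paper's reporting summary, littermates were assigned to groups at random, which mice shared a litter is not given in the sources used here, and p-values measure only the spread between these samples.

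From the counts, TMM factors, filterByExpr (minimum count 10, minimum total 15) and a quasi-likelihood fit of all 19 mice with 1 coefficient per genotype were computed with edgeR 4.0.16 in R 4.3.3. The 7 comparisons were adjusted over 18521 genes by Benjamini-Hochberg with a threshold of 0.05. DESeq2 1.42.0 was an alternative. The standard error is the log2 fold change divided by the square root of F. CPM is scaled to the TMM-adjusted library size, and log2 CPM has a prior count of 2. TPM used exon lengths of GENCODE M21. Fits were also run on data simulated with the same spread for every gene. Those data held no library like KI-FL replicate 4 and no difference by sex, so that they say nothing about the fits under such conditions. Any 2 mice of a genotype differed by more than counting noise (chi-square of 7.78 or more for each degree of freedom). The genes named were all 8 repair genes, the genes of each list called against WT or of smallest p, neighbours on the other strand and, for Msh3 and Fan1, the 3 most correlated genes. The members and lists were chosen with earlier results of these data known. A neighbouring gene and a sequence match are not reported here.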

Additional observations from a re-analysis of the deposited data

Results flagged for a closer look

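The 8 genes in 4 genotypes gave 32 groups of mice in which the highest and the lowest log2 CPM were compared with the others by Dixon's criterion, of which chance alone would give about 1.6 beyond the 95% limit. There were 4. Msh6 in WT replicate 3 was at 3.64 log2 CPM, below the other 6 WT mice at 4.22 to 4.49. This was the mouse with the highest cortical neuron marker level of all. Pms1 in KI-571 replicate 2 was at 0.92 log2 CPM, from 30 counts, below the other 3 KI-571 mice at 1.999 to 2.12, and Pms1 in KI-FL replicate 4, with 0 counts, was at -3.25 log2 CPM, a value set by the prior count, below the other 3 KI-FL mice at 1.64 to 2.01. Ogg1 in KI-96 replicate 4 was at 2.62 log2 CPM, above the other 3 KI-96 mice at 2.38 to 2.40. No gene of the 8 had every mouse of one KI genotype above the WT mean and every mouse of another below it, in 24 such comparisons.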

How the results depend on the processing

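No member was called in any comparison run under 9 other ways of processing the counts, 7 of which covered all 7 comparisons and 2, with fewer WT mice, the 4 against WT, or in the 7 comparisons with any of the 19 mice left out, and the smallest adjusted p of a member against WT was 0.168 in the former and 0.22 in the latter. The sign of a fold change was less stable. Of 284 member values under those 9 ways 257 kept their sign and 27 did not, and of 608 with a mouse left out 582 kept it. None of the reversed values was called, and the cause was not tested. All following values are log2 fold changes. With WT replicates 1 to 4 only, the reversed values were 1e-04 and 0.0073 for Lig1 in KI-571 and the mean of the KI genotypes, 0.031, 0.092 and 0.093 for Msh6 in KI-96, KI-571 and that mean, 0.045 for Pms1 in KI-571 and -0.016 for Pms2 in KI-96. With WT replicates 5 to 7 only they were 0.036 for Mlh3 in KI-571, -0.12 for Msh6 in KI-FL, -0.090 and -0.079 for Ogg1 in KI-571 and the mean, and 0.083 for Pms2 in the mean. The level of Xist as a covariate gave 0.0029 for Mlh3 in KI-571 and, in the mean, 0.0081 for Lig1 and -0.017 for Ogg1. Without the filter on low counts the values were -1e-04 for Msh6 in KI-FL and -0.0056 and -0.0011 for Ogg1 in KI-571 and the mean. Mlh3 in KI-571 was 0.0038 by DESeq2 and 0.0041 with DESeq2 size factors.

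The same replicate numbers occur in every genotype, but deviations of mice with the same number had mean correlations of -0.0093 to 0.052, so that the numbers were not taken as pairs. With a replicate block the members called stayed at 0 in all 7 comparisons, and the reversed values were 0.0095 and 0.011 for Lig1 in KI-571 and the mean, 0.048, 0.099 and 0.11 for Msh6 in KI-96, KI-571 and the mean, 0.013 for Pms1 in KI-571 and -0.037 for Pms2 in KI-96.

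Leaving out 1 mouse at a time gave these ranges where a sign turned. In KI-96 they were -0.089 to 0.16 for Pms2 and -0.017 to 0.15 for Fan1, both turned by replicate 3. In KI-571 they were -0.14 to 0.014 for Msh6, -0.080 to 0.059 for Mlh3, -0.17 to 0.15 for Pms1, -0.12 to 0.0034 for Lig1 and -0.046 to 0.098 for Ogg1. In KI-FL they were -0.18 to 0.040 for Msh3, -0.062 to 0.072 for Msh6 and -0.098 to 0.17 for Lig1, the first and last turned by replicate 4. In the mean they were -0.21 to 0.029 for Pms1, -0.075 to 0.014 for Pms2 and -0.033 to 0.058 for Ogg1. Apex1 in KI-FL stayed between 0.72 and 1.18 but lost its call in 12 of 19 such fits, and in 4 of the 9 other ways, with 0.91 and WT replicates 1 to 4, 1.28 and WT replicates 5 to 7, 1.06 with Xist and 0.90 with the replicate block.

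The number of all tested genes called moved far more. It was 5, 6 and 36 for KI-96, KI-571 and KI-FL against WT, 33, 117 and 596 by DESeq2, 23, 78 and 85 without the filter, 0, 55 and 336 with only the groups compared, 0, 0 and 0 with WT replicates 1 to 4, and 0, 1 and 0 with the replicate block. For the mean of the KI genotypes it was 10, 303 by DESeq2 and 140 without the filter. Between KI genotypes it was 1, 0 and 16 for KI-571 against KI-96, KI-FL against KI-96 and KI-FL against KI-571, and 36, 52 and 114 by DESeq2. Pms1 dropped out of the test when 10 counts were required in every mouse.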
